A study of Mus musculus with 6 samples.

Results

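The genes described here are 34 genes of the unfolded protein response and of protein folding in the endoplasmic reticulum (ER). They were taken by symbol from a table of 46078 genes, in which all 34 were present, and all 34 were among the 14923 genes that passed the filter on low counts. RNA was sequenced from small intestinal epithelial cells of C57BL/6JRj mice, freed by digestion and sorted for the epithelial surface protein EpCam and against the leukocyte protein CD45. The 3 young mice were 2 to 3 months old and the 3 aged mice 20 to 22 months old, with 1 library per mouse and no treatment. No transgene, deletion or agent is named in the labels of either group, and the labels give no sex or batch. The comparison addresses what age changes in the gut epithelium.

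Secreted and membrane proteins fold in the ER with the help of chaperones and of enzymes that form disulfide bonds. When unfolded proteins build up, the sensors IRE1, PERK and ATF6 signal from the ER membrane: IRE1 splices Xbp1 mRNA, ATF6 is cut to release a transcription factor, and PERK phosphorylates eIF2, which slows translation and favours that of ATF4. XBP1 and ATF6 drive genes of chaperones and of ER-associated degradation, while ATF4 drives genes of amino acid supply and, under lasting stress, of cell death. In the gut the pathway is best known from goblet and Paneth cells, which secrete large amounts of mucin and antimicrobial protein. Splicing of Xbp1, cleavage of ATF6 and phosphorylation of eIF2 are not seen in counts per gene.

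Total counts ran from 41479573 to 58989166 per library. Young library 2 was the deepest and stood apart from the others on the second principal component, which held 22.4% of the variance (-34.8, against -4.39 to 21.8 in the other libraries). Age differences and spreads that move with this library are also given without it. The epithelial markers Epcam, Cdh1, Krt8, Krt18 and Vil1 summed to 6669 to 7134 scaled counts (CPM) in young and 6363 to 6929 CPM in the aged libraries, and leukocyte markers to 3.69 to 5.04 and 3.74 to 3.90 CPM. CPM are counts per library total on a common scale, corrected with TMM factors. Goblet markers (10 genes, 2 called lower in aged libraries) summed to 17880, 27152 and 21334 CPM in the young and 15881, 16763 and 15115 CPM in the aged libraries. Paneth markers (9 genes found, 2 called lower) summed to 11005, 8533 and 15733 CPM and 6919, 6778 and 6431 CPM. In bulk libraries, fewer cells of a type and less RNA per cell cannot be told apart.

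Promoter sequences are shown first, because the ER stress response element is the textbook link between the sensors and the chaperone genes. RefSeq promoter windows on GRCm38.p6, from 250 bases before to 50 bases after a gene's start, were matched for 28 of the 34 genes by symbol. The element ERSE was searched on both strands as CCAAT, a spacer of any 9 bases and CCACG, and its variant ERSE-II as ATTGG, any 1 base and CCACG. ERSE stood in the windows of 9 of the 28 genes, and in 39 of all 32851 windows (0.119%). ERSE-II stood in those of Dnajb11 and Herpud1, and in 12 of all windows (0.0365%). These are letters found in a window, not shown binding sites, and the elements of several of these genes are textbook examples. In the elements below, read 5′ to 3′ on the strand that carries the motif, capitals mark the fixed bases and lower case the spacer.
Hspa5: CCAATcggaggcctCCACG
Calr: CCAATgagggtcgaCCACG
Canx: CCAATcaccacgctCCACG
Pdia6: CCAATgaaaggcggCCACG
Dnajc3: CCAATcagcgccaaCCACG
Creld2: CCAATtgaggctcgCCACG
Syvn1: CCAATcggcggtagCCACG
Derl3: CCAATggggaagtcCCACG
Dnajb11: ATTGGcCCACG
Herpud1: ATTGGgCCACG

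The element of Hspa5 lies at chr2:34772025-34772043 on the plus strand, 65 to 47 bases before the RefSeq start and within the span of the gene in GENCODE M21. That of Calr lies at chr8:84847075-84847093, on the strand opposite to the gene and 162 to 144 bases before its start. That of Dnajb11 begins 8 bases after the start, at chr16:22857852-22857862. Hsp90b1 was the single gene with more than 1 exact match to ERSE, 1 on each strand. Copies that depart from the fixed bases were not searched. Longer upstream stretches, each outside its own gene's span and outside all exons in GENCODE M21, are printed 5′ to 3′ on the gene's strand for 3 genes: Hsp90b1 for its pair of elements, and Creld2 and Syvn1 for their wide range between libraries. Capitals mark the fixed bases of a motif, which reads as its reverse complement where it lies on the other strand. They are Hsp90b1 (chr10:86705510-86705694, minus strand), Creld2 (chr15:88819396-88819645, plus strand) and Syvn1 (chr19:6046326-6046575, plus strand).
Hsp90b1: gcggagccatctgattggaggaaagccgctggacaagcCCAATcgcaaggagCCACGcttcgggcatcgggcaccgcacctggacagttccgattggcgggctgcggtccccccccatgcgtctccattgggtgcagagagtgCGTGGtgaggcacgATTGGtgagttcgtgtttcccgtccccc
Creld2: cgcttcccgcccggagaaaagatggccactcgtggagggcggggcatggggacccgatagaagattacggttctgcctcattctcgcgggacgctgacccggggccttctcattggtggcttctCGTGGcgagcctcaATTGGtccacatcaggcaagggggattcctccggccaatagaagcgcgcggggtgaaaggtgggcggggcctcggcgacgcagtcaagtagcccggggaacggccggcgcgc
Syvn1: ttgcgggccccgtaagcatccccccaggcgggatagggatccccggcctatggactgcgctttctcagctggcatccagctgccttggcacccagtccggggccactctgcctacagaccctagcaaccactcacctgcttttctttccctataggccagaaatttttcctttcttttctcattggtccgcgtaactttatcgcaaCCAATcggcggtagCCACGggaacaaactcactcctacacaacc

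Herpud1 was the single gene with matches to more than 1 of the 4 motifs searched. Its stretch at chr8:94386179-94386428 (plus strand) holds ERSE-II 52 to 42 bases before the start and a C/EBP-ATF core, searched on both strands as TGATGNAA, on the opposite strand. It lies in an intron of Gm15890, annotated on the opposite strand. The C/EBP-ATF core is the type of site that ATF4 is known to use in genes of amino acid supply. Besides Herpud1 it stood in the windows of Trib3, Chac1 and Asns, so in 4 of 28 genes and in 1304 of all windows (3.97%). The stretch of Chac1 lies at chr2:119350992-119351228 on the plus strand, and capitals again mark the fixed bases.
Herpud1: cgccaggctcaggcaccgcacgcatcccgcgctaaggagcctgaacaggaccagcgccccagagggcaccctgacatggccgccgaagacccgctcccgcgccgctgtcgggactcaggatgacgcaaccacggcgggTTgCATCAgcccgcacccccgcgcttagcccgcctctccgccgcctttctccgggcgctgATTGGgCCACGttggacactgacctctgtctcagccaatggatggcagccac
Chac1: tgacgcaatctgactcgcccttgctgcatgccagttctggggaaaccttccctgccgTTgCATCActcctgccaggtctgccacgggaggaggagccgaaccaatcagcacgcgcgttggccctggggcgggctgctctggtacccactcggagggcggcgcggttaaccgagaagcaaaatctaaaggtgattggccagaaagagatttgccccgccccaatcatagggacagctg
The core TGACGTGG of the unfolded protein response element (UPRE), also searched on both strands, was in none of the 28 genes' windows and in 222 of all windows (0.676%). None of the 16 matches overlapped another.

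**Figure D1:**
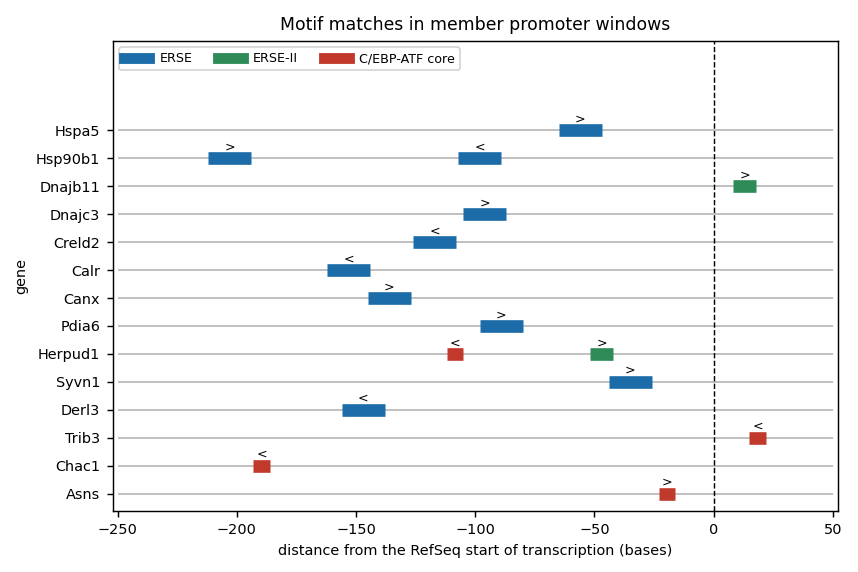
Position of each motif match in the promoter windows, as distance in bases from the RefSeq start, with one row per gene that has a match, colour for the motif and an arrowhead for the strand relative to the gene. Of the 16 matches, 10 are ERSE, 6 of these on the gene's own strand, and Hsp90b1 holds 1 on each strand.

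None of the 34 genes passed the age test in either direction (edgeR quasi-likelihood test over 14923 genes, Benjamini-Hochberg adjusted p below 0.05). The background was 1.41% of all genes tested, of which 0.623% were higher and 0.784% lower in aged libraries. At an unadjusted p under 0.05 the count was also 0 of 34, against 9.23% of all genes, and DESeq2 (3.23% of all genes called) and limma-voom (1.15%) called 0 of 34 as well. The median log2 fold change of aged over young was 0.04, beside 0.01 over all genes, and 22 of 34 values were above 0. The 95% interval of the difference lay within a 1.5-fold change in either direction for 27 of 34 genes and within a 1.2-fold change for 12 of 34. For 31 of 34 it lay within a 2-fold change. A test that is not passed does not show equal levels. The plot of age differences gives each gene's interval.

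**Figure D2:**
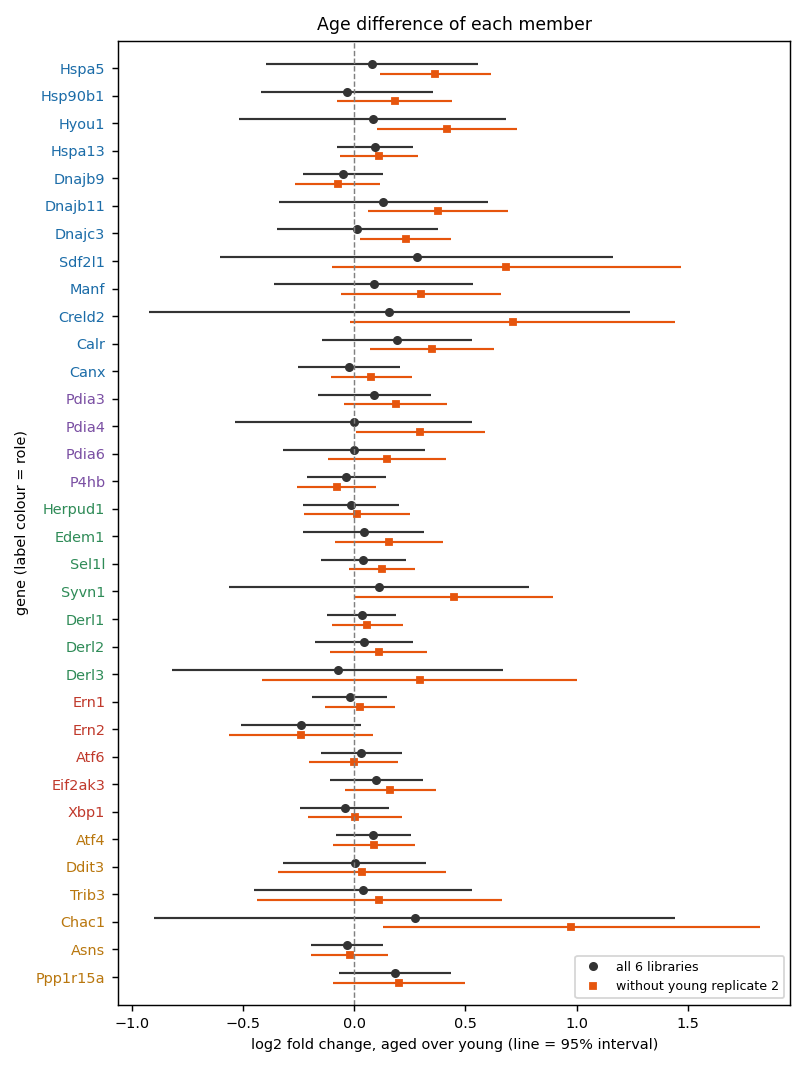
Log2 fold change of aged over young for each of the 34 genes, with lines for 95% intervals (edgeR), from all 6 libraries (dark circles) and without young library 2 (orange squares), and label colours for roles. Every interval from all 6 libraries includes 0, and without young library 2 the intervals of 8 genes lie above 0. Leaving out that library raises most values by construction.

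The main feature of the chaperones was a spread between libraries of the same age. With 1 library per mouse, differences between mice and between preparations cannot be told apart. Summed over the 12 chaperones, the level was 4371, 6663 and 4467 CPM in young libraries 1 to 3 and 5479, 6151 and 4729 CPM in the aged libraries 1 to 3. Young library 2 was thus the highest of all 6, aged libraries 2 and 1 followed, and the groups overlapped. None of the 12 passed the age test, 9 had a log2 fold change above 0, and the median was 0.09.

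Hspa5 encodes BiP, the major Hsp70 chaperone of the ER, which also holds the sensors inactive, and lies at chr2:34771970-34777547. It stood at 922, 1598 and 987 CPM in the young and 1273, 1363 and 1069 CPM in the aged libraries. Young library 2 was above every aged library, and both other young libraries were below every aged library. The log2 fold change was 0.08 ± 0.21 (SE, n = 3 per age), with a 95% interval of -0.40 to 0.56 (edgeR adjusted p = 0.967). Without young library 2 it was 0.36 ± 0.11 (unadjusted p = 0.00960, adjusted p = 0.170 in edgeR's test).

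Calr encodes calreticulin, a calcium-binding lectin that holds newly made glycoproteins. It stood at 1054, 1464 and 1092 CPM in the young and at 1380, 1577 and 1165 CPM in the aged libraries. Its highest library was aged 2 and the groups overlapped through young library 2. The log2 fold change was 0.19 ± 0.15 (95% interval -0.15 to 0.53, edgeR adjusted p = 0.824), and 0.35 without young library 2 (adjusted p = 0.222). Canx, the membrane-bound relative calnexin, ran from 590 to 735 CPM in the young and from 584 to 672 CPM in the aged libraries, a log2 fold change of -0.03 ± 0.10.

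Sdf2l1 is part of an ER chaperone complex with BiP. It stood at 41.5, 90.4 and 49.9 CPM in the young and 79.6, 94.1 and 47.7 CPM in the aged libraries. Young library 2 and aged libraries 1 and 2 were thus at more than 1.5 times the level of the rest. The log2 fold change was 0.28 ± 0.36 (95% interval -0.60 to 1.16, edgeR adjusted p = 0.903), and 0.68 without young library 2 (adjusted p = 0.353).

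Dnajb11, an Hsp40 partner of BiP, stood at 141, 223 and 142 CPM in the young and 191, 212 and 150 CPM in the aged libraries. The order of the libraries was that of Hspa5 for the 3 highest, with young library 2 first. The log2 fold change was 0.13 ± 0.20 (edgeR adjusted p = 0.927), and 0.38 without young library 2 (adjusted p = 0.241).

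Creld2, a thioredoxin-like folding factor, had the widest range of the chaperones and was chosen for this after its values were seen. It stood at 56.1, 140 and 59.4 CPM in the young and 98.0, 124 and 63.6 CPM in the aged libraries, a highest-to-lowest ratio of 2.49. The log2 fold change of aged over young was 0.16 ± 0.44, with a 95% interval of -0.92 to 1.24. Without young library 2 it was 0.71 (edgeR adjusted p = 0.311) and the ratio of libraries 2.21. Hyou1, an Hsp110 relative that acts with BiP, stood at 389, 718 and 407 CPM in the young and 577, 596 and 432 CPM in the aged libraries, a ratio of 1.84 (1.53 without young library 2). The age difference on the log2 scale was 0.08 ± 0.25, and 0.42 without that library. Hsp90b1, the ER form of Hsp90 whose promoter holds both ERSE copies, ran from 814 to 1244 CPM in the young and from 840 to 1099 CPM in the aged libraries. Manf, a secreted ER stress factor, ran from 132 to 208 and from 138 to 201 CPM, and Dnajc3, a co-chaperone, from 120 to 183 and from 129 to 154 CPM.

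Of the chaperone genes, Hspa13, Dnajb9 and Canx shared this spread least. Canx, given above, had a highest-to-lowest ratio of 1.26, with aged library 1 as its lowest. Hspa13, an Hsp70 relative at the ER and microsomes (chr16:75745431-75767104), stood at 30.0, 31.7 and 30.1 CPM in the young and 32.3, 32.7 and 32.8 CPM in the aged libraries. It was the single gene of the 34 whose groups did not overlap, where 13.8% of all genes tested had groups apart. Its log2 fold change was 0.09 ± 0.08 (95% interval -0.08 to 0.26) and did not pass the test (edgeR adjusted p = 0.827). Dnajb9, the Hsp40 known as ERdj4, stood at 28.9, 27.7 and 28.5 CPM in the young and 27.8, 26.2 and 28.2 CPM in the aged libraries. Its highest library was 1.10 times its lowest, and its log2 fold change was -0.05 ± 0.08 (edgeR adjusted p = 0.926).

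**Figure D3:**
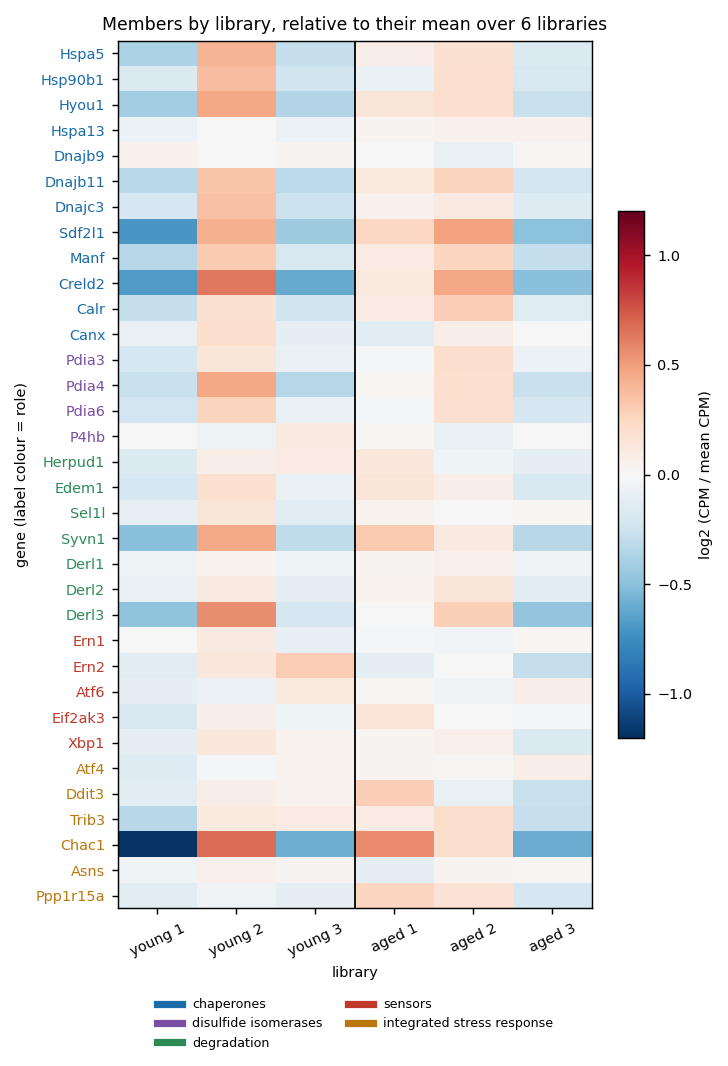
Log2 deviation of each gene's CPM from its mean over the 6 libraries, one row per gene grouped by role and one column per library. Most chaperones are above their mean in young library 2 and aged libraries 1 and 2, while Dnajb9, Hspa13, P4hb, Ern1 and Atf6 vary little.

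Of the 4 disulfide isomerases, none passed the age test and 1 had a log2 fold change above 0. P4hb, the canonical protein disulfide isomerase, was the most abundant of all 34 genes. It stood at 1666, 1599 and 1787 CPM in the young and 1689, 1566 and 1671 CPM in the aged libraries, and unlike Hspa5 it was not high in young library 2. Its log2 fold change was -0.04 ± 0.08 (95% interval -0.21 to 0.14, edgeR adjusted p = 0.955). Pdia3, which works with calnexin and calreticulin, stood at 667, 854 and 727 CPM in the young and 759, 898 and 737 CPM in the aged libraries. Its log2 fold change was 0.09 ± 0.11 (edgeR adjusted p = 0.894), with aged library 2 highest and young library 2 next. Pdia4 varied the most of the 4, at 205, 341 and 195 CPM in the young and 252, 283 and 205 CPM in the aged libraries. Pdia6 ran from 318 to 450 and from 325 to 426 CPM, and both genes had a log2 fold change that rounds to 0.00. Without young library 2 it was 0.30 for Pdia4 (edgeR adjusted p = 0.292) and 0.15 for Pdia6.

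The 7 genes of ER-associated degradation carry misfolded proteins back to the cytosol. None passed the age test, 5 had a log2 fold change above 0 and the median was 0.04. Syvn1, the ubiquitin ligase HRD1, stood at 103, 200 and 118 CPM in the young and 182, 158 and 116 CPM in the aged libraries, a ratio of 1.93 between the highest and lowest library (1.76 without young library 2). Aged over young, the log2 fold change was 0.11 ± 0.28, and 0.45 without young library 2 (edgeR adjusted p = 0.298). Sel1l, its membrane partner, ran only from 134 to 162 CPM in the young and from 146 to 150 CPM in the aged libraries. Edem1, which marks glycoproteins for disposal, ran from 97.0 to 128 and from 98.8 to 124 CPM, and Herpud1, a membrane factor of the same complex, from 135 to 162 and from 140 to 166 CPM. Of the derlins, which help move substrates across the membrane, Derl1 varied least (98.0 to 106 CPM over all 6 libraries) and Derl2 ran from 41.5 to 50.3 CPM. Derl3 was low, at 0.887 to 1.83 CPM, which was 39 to 108 counts per library.

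None of the sensor genes or Xbp1 passed the age test. Ern1, which encodes the widely expressed IRE1 alpha, stood at 89.4, 96.3 and 83.4 CPM in the young and 88.2, 86.9 and 90.3 CPM in the aged libraries (log2 fold change -0.02 ± 0.07, edgeR adjusted p = 0.973). Atf6 stood at 85.2, 87.4 and 99.7 CPM in the young and 92.9, 89.0 and 96.4 CPM in the aged libraries (0.03 ± 0.08 on the log2 scale, edgeR adjusted p = 0.963). For both genes all aged libraries lay inside the range of the young ones.

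Ern2 encodes IRE1 beta, the form found in epithelia that make mucus, and lies at chr7:122169893-122186207. It stood at 59.1, 71.0 and 80.2 CPM in the young and 60.2, 64.7 and 53.0 CPM in the aged libraries. Its unadjusted p of 0.0738 was the smallest of the 34 genes, and the log2 fold change was -0.24 ± 0.12 (95% interval -0.51 to 0.03, edgeR adjusted p = 0.632). The groups overlapped through young library 1. The goblet and Paneth marker sums were both lower in each aged library than in every young library, and move with the group means of Ern2. Ern2 and the Paneth sum were highest in young library 3, and the goblet sum in young library 2. The part of these cell types in the level of Ern2 was not tested.

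Eif2ak3, which encodes PERK, stood at 43.9, 53.1 and 48.5 CPM in the young and 55.9, 50.4 and 49.6 CPM in the aged libraries (log2 fold change 0.10 ± 0.09, edgeR adjusted p = 0.849). Only young library 2 overlapped with the aged libraries. Xbp1, the mRNA that IRE1 splices, stood at 215, 252 and 238 CPM in the young and 237, 242 and 206 CPM in the aged libraries (-0.04 ± 0.09, edgeR adjusted p = 0.950). Its total level was lowest in aged library 3 and highest in young library 2, a ratio of 1.23.

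None of the 6 genes of the ATF4 arm, also called the integrated stress response, passed the age test, although 5 had a log2 fold change above 0. Atf4 itself stood at 355, 390 and 407 CPM in the young and 405, 399 and 418 CPM in the aged libraries (0.09 ± 0.07, edgeR adjusted p = 0.835), with young libraries 1 and 2 below all aged ones. Ddit3, which encodes the death-linked factor CHOP, stood at 23.0, 26.6 and 26.1 CPM in the young and 31.1, 23.8 and 21.0 CPM in the aged libraries (0.00 ± 0.14, edgeR adjusted p = 0.998). Aged library 1 was its highest and aged library 3 its lowest library.

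Ppp1r15a encodes GADD34, the stress-induced subunit that directs a phosphatase to eIF2. It stood at 134, 143 and 137 CPM in the young and 176, 166 and 128 CPM in the aged libraries. Aged libraries 1 and 2 were above every young library and aged library 3 was below all of them. The log2 fold change was 0.18 ± 0.11 (95% interval -0.07 to 0.44, edgeR adjusted p = 0.739), and without aged library 3 it was 0.31 (adjusted p = 0.110). The list of immediate early and dissociation response genes summed to 5669, 6527 and 5998 CPM in the young and 7409, 6041 and 6883 CPM in the aged libraries, with 0 of 14 genes called, and its part in the level of Ppp1r15a was not tested.

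Chac1, a glutathione-degrading enzyme, had the widest range of all 34 genes. It stood at 2.57, 9.22 and 3.86 CPM in the young and 8.60, 6.69 and 3.83 CPM in the aged libraries, a ratio of 3.58 (3.34 without young library 2). Its log2 fold change was 0.27 ± 0.50, with an interval of -0.90 to 1.44, so these libraries bound it only loosely. Asns, the asparagine synthetase gene that carries the same C/EBP-ATF core, ran only from 72.3 to 81.0 CPM over all 6 libraries. Trib3, a pseudokinase gene that ATF4 and CHOP are known to drive, ran from 1.98 to 2.87 CPM.

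The same 3 libraries were the highest for many of the 34 genes, though not for all. Young library 2 was the highest library for 18 genes (52.9%, against 18.4% of all genes tested) and the lowest for 0 (19.4%). Young library 1 was the lowest for 19 genes (55.9%, against 14.3%). The 3 highest libraries were young 2, aged 1 and aged 2 for 20 of 34 genes (58.8%, against 13.3% of all genes tested). These were 9 of 12 chaperones, 3 of 4 isomerases, 5 of 7 degradation genes, 1 of 5 sensors and Xbp1 (Eif2ak3) and 2 of 6 genes of the ATF4 arm (Chac1 and Ppp1r15a). The other 14 genes, among them P4hb, Dnajb9, Atf4, Atf6, Asns and Ern2, had another top 3. Genes of this pathway share regulators and libraries, so these shares are a description with no test. The library medians of the log2 deviation over the 34 genes were -0.17, 0.15 and -0.09 in the young and 0.06, 0.14 and -0.16 in the aged libraries.

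The spread of some of the 34 genes, mainly chaperones, was wide for their abundance. Over all genes tested the highest library exceeded the lowest by more than 1.5 times in 36.7%, many of them of low count, and in 13 of the 34 genes. At a mean level of 20 CPM or more, a limit chosen after the values were seen, it did so for 11 of 31 genes and for 9.73% of the 7911 genes in all. Without young library 2 these were 7 of 31 and 7.62%. By role, the median ratio was 1.55 for chaperones, 1.38 for isomerases, 1.22 for degradation genes, 1.23 for sensors and Xbp1 and 1.41 for the ATF4 arm. It was 1.39 over the 34 genes and 1.34 over all genes tested, those of low count included. Degradation genes and the sensors with Xbp1 were thus below the value of all genes. Without young library 2 the chaperone median was 1.49 (1.30 over all genes). Within young mice alone the chaperone median was 1.55 (1.22 over all genes), and within aged mice 1.33 (1.19 over all genes). The young value rests on young library 2: between young libraries 1 and 3 alone it was 1.04 (1.09 over all genes). For the 11 genes with ERSE or ERSE-II in their window the median ratio was 1.53 (1.22 to 2.49), and for the 17 with a window and neither element 1.27 (1.10 to 3.58), so the ranges overlapped.

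**Figure D4:**
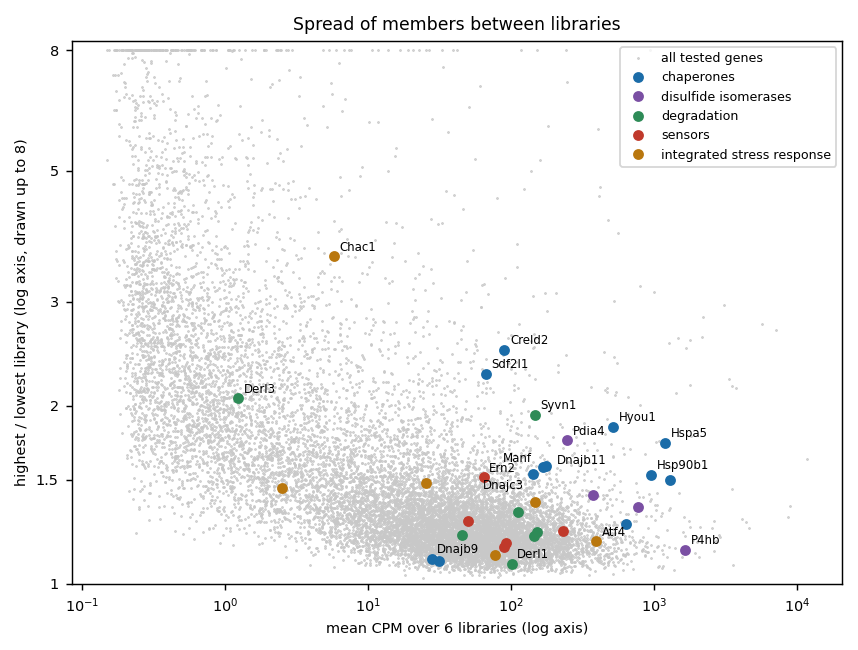
Ratio of the highest to the lowest of the 6 libraries (log axis, larger ratios drawn at 8) against mean CPM (log axis), for the 34 genes in colours by role and for all genes tested in grey. Chac1 (3.58) and Creld2 (2.49) are the widest of the 34 and Derl1 (1.08) and Hspa13 (1.09) the narrowest.

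Marker sums of the main epithelial cell types are set beside this order. The chaperone sums were 4371, 6663 and 4467 CPM in the young and 5479, 6151 and 4729 CPM in the aged libraries. Goblet sums in the same order were 17880, 27152 and 21334 CPM, then 15881, 16763 and 15115 CPM. Paneth sums were 11005, 8533 and 15733 CPM, then 6919, 6778 and 6431 CPM. Enterocyte markers (10 genes, 0 called) summed to 6756, 5237 and 5093 CPM in the young and 5637, 3673 and 5597 CPM in the aged libraries. Of these, 7 were highest in young library 1 and all 10 were lowest in aged library 2. The mitochondrial share of counts was 3.69, 2.07 and 1.48% in the young and 2.88, 2.04 and 1.54% in the aged libraries. Plasma cells also express these chaperones strongly. Of their markers Jchain, Mzb1, Tnfrsf17 and the immunoglobulin genes were near 0, and almost all of the list's sum was Sdc1, which epithelium expresses too. The part of depth, cell makeup and handling in the order of the libraries was not tested.

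Leaving out young library 2 moved the age values of the chaperones. In 31 of the 34 genes this library was above the mean of the other young libraries, so leaving it out raises their age values by construction. The counts without it are thus no test of an age difference. Without young library 2 the median log2 fold change over the 34 genes was 0.15 and 29 of 34 were above 0 (50.4% of all genes tested). By comparison, 27 of 34 were above 0 without aged library 3, while 11 of 34 were above 0 without young library 1 (median -0.05) and 14 of 34 without aged library 2 (median -0.01), against 22 of 34 from all 6 libraries. In 12 of 34 genes (35.3%) all aged libraries were above both remaining young libraries, against 18.0% of all genes tested, and in 1 gene, Dnajb9 (2.94%), they were below both, against 18.3% of all genes tested. At an unadjusted p under 0.05 there were 8 genes, all higher in aged libraries (23.5%, against 7.75% of 15115 genes): Hspa5, Hyou1, Dnajb11, Dnajc3, Calr, Pdia4, Syvn1 and Chac1. The same count was 1 without young library 1 (Ern2, lower in aged libraries, against 6.89% of all genes). It was 1 without aged library 3 (Ppp1r15a, higher, against 12.1%). It was 0 without young library 3, aged library 1 or aged library 2 (against 6.91 to 7.52%). Without young library 2, none of the 34 passed the adjusted threshold, which 1.42% of all genes did. The smallest adjusted p was that of Hspa5 (0.170), with 0.208 for Hyou1 and 0.254 for Chac1, whose log2 fold change was 0.98 in this fit. Without young library 1 instead, the log2 fold change was -0.07 for Hspa5, Hyou1, Creld2 and Syvn1, -0.12 for Pdia4 and -0.10 for Pdia6. It was -0.05 for Chac1, 0.10 for Calr, 0.07 for Sdf2l1 and 0.02 for Dnajb11.

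Compared per length of exon, the folding genes spanned a wide range of levels. Levels are CPM per kilobase of summed exon, as mean ± SD over all 6 libraries. P4hb (581 ± 26.9) was followed by Calr (447 ± 74.7), Hspa5 (284 ± 60.8), Pdia3 (247 ± 27.4) and Hsp90b1 (238 ± 42.9). Atf4 (168 ± 9.35) came next and was the first in the order whose range was apart from its upper neighbour's. The sensors lay far lower, with Ern2 at 21.8 ± 3.26, Ern1 at 10.9 ± 0.522, Atf6 at 9.94 ± 0.605 and Eif2ak3 at 8.33 ± 0.682. Chac1 (3.54 ± 1.69), Trib3 (1.17 ± 0.177) and Derl3 (0.623 ± 0.186) were the lowest. Of the 33 neighbouring pairs in this order, 7 had ranges that did not overlap over the 6 libraries, so the order within the rest is not fixed.

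**Figure D5:**
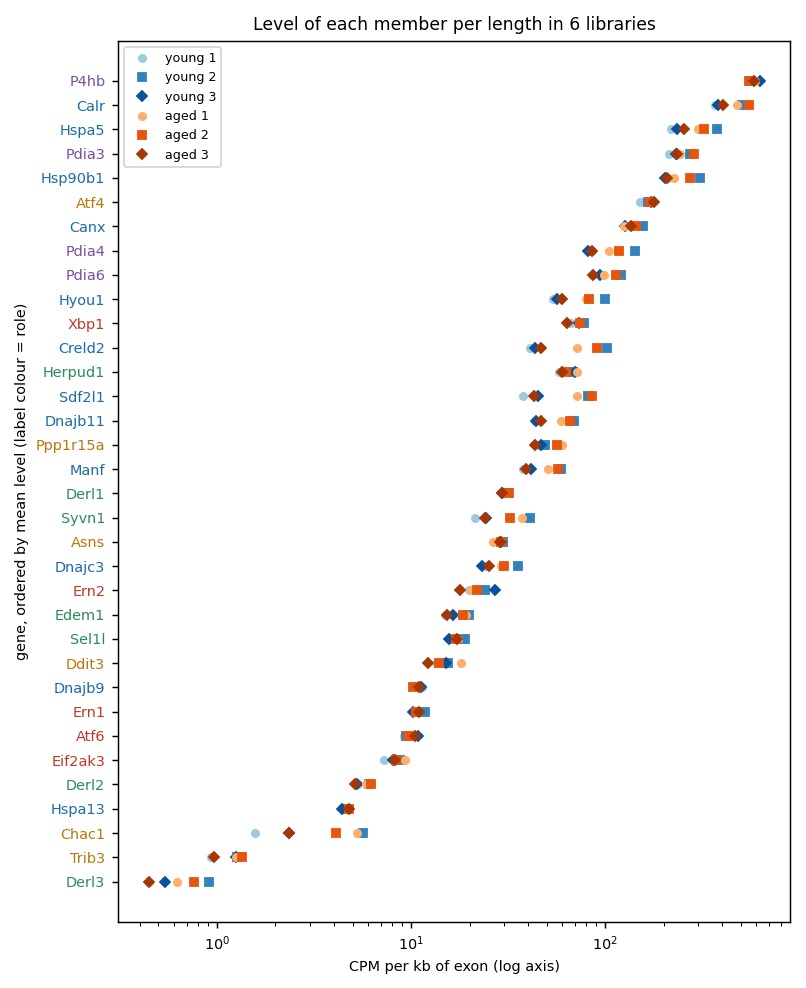
Level of each of the 34 genes in CPM per kilobase of exon on a log axis, one point per library, blue for young and orange for aged, with label colours for roles. P4hb is at the top (mean 581) and Derl3 at the bottom (mean 0.623), and neighbours mostly overlap.

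Other genes of the pathway were counted in lists that do not hold the 34. Of 30 other tested genes of ER folding and quality control, 1 was called lower and 0 higher. That gene was Pdia2, an isomerase best known from the pancreas, at 0.387, 0.423 and 0.576 CPM in the young and 0.127, 0.0877 and 0.125 CPM in the aged libraries. These are 17, 25 and 24 counts against 6, 4 and 7. Its log2 fold change was -1.99 ± 0.38 (edgeR adjusted p = 0.0421), and in each of the 6 fits that left out a library the adjusted p was above the threshold, with 0.187 as the highest over all alternatives. Pancreatic acinar markers summed to 4.87 to 7.49 CPM in the young and 9.63 to 11.4 CPM in the aged libraries, nearly all Cela1, with Cpa1, Prss2 and Amy2a5 at 0.

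Of 37 other tested genes of the ATF4 and amino acid response, 1 was called higher and 0 lower. Jdp2, which encodes a partner of AP-1 and ATF factors, rose from 0.796, 0.541 and 0.648 CPM in young to 2.34, 1.91 and 2.67 CPM in the aged libraries. Its log2 fold change was 1.81 ± 0.25 (edgeR adjusted p = 0.0104), over a range of 5.75e-07 to 0.0639 in the alternatives, and the groups were apart. The adjusted p exceeded the threshold without aged library 1. The list had 27 of 37 values above 0, a median log2 fold change of 0.08 and 8 genes at an unadjusted p under 0.05, against 9.23% of all genes. Without young library 2 there were 17 such genes (16.6% of all genes), 14 of them higher in aged libraries (7.75%), and 1 was called (1.42%). Young library 1 was the lowest library for 16 of the 37 (14.3% of all genes). Young library 2 was the highest library for 11 of the 37 and the lowest for 5 (18.4% and 19.4% of all genes). Leaving it out moves the age values of those genes by construction.

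None was called among 15 other sensors and transducers, 28 ER-associated degradation genes, 30 translocation and signal peptidase genes, 18 ER calcium and redox genes, 13 ER-phagy genes and 16 genes of eIF2 control. At an unadjusted p under 0.05 these lists held 1, 1, 0, 2, 3 and 1 genes, against 9.23% of all genes. Their most abundant genes gave the level of the machinery around the 34. Tmbim6, an ER membrane protein that restrains IRE1, stood at 1089 ± 79.1 CPM in the young and 1052 ± 39.0 CPM in the aged libraries (SD, n = 3 each). Nfe2l2, a target of PERK, stood at 334 ± 28.5 and 328 ± 18.7 CPM. Os9, a lectin of degradation, stood at 297 ± 21.7 and 289 ± 15.6 CPM and Aup1 at 201 ± 5.77 and 215 ± 13.7 CPM. The oligosaccharyltransferase subunits Rpn1 and Rpn2 were at 567 ± 36.4 and 583 ± 27.8 CPM in the young and 588 ± 39.5 and 582 ± 16.5 CPM in the aged libraries.

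Atp2a2, the SERCA pump that fills the ER with calcium, shared the high value of young library 2, at 381, 552 and 367 CPM in the young and 467, 492 and 447 CPM in the aged libraries. The calcium channel gene Itpr3 stood at 497 ± 9.93 and 528 ± 18.4 CPM. For the ER-phagy receptor gene Rtn3 the values were 198 ± 5.69 and 188 ± 4.52 CPM, and for the ER shaping gene Atl2 109 ± 4.86 and 113 ± 2.36 CPM. The phosphatase gene Ppp1ca stood at 331 ± 10.5 and 342 ± 6.88 CPM. Its constitutive eIF2-directing subunit gene Ppp1r15b stood at 253 ± 22.7 and 277 ± 15.1 CPM. None of these genes passed the test.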

How the data were processed

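The library kit for poly(A) RNA was stranded, per the labels' protocols. Values in the deposited table are raw counts for each gene, with no normalisation by the authors. The submitters' processing notes name GRCm38 and, among others, STAR, HISAT2 2.1.0, featureCounts 1.6.4 and DESeq2 1.28.1, without roles. The strand setting of the counting is not given in the sources used here. Exons of 11 of the 34 genes overlap those of other genes in GENCODE M21, and for Manf, Syvn1, Derl2 and Ddit3 a partner had a mean of at least 20 CPM, so their counts are uncertain.

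Genes were kept by filterByExpr (minimum count 10), scaled with TMM factors and tested over all genes with edgeR 4.0.16 (R 4.3.3; quasi-likelihood, robust, age as the only term, 6 libraries). Adjusted p-values are Benjamini-Hochberg values with a threshold of 0.05. Standard errors are the size of the log2 fold change over the square root of F. The alternatives were other scaling factors, other filters, DESeq2 1.42.0, limma-voom (limma 3.58.1), a non-robust fit and leaving out each library. The ratio of highest to lowest library without young library 2 was added after the data were seen. The test was tried on simulated data with 50 changed genes at each of 4 fold changes. It recovered 5 at 1.25-fold, 26 at 1.5-fold, 44 at 2-fold and 45 at 4-fold. Of its 136 calls, 11.8% were of unchanged genes, above the threshold of 0.05. Counts allow 0 to mean up to 3 counts, or 0.0507 to 0.0720 CPM, which covers counting error only.

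Replicates were numbered in record order. The p-values weigh the age difference against the spread between libraries of the same age, with 1 library per mouse. Libraries of 1 group differed by more than sampling noise (chi-square per gene at least 27.0). Members and lists were chosen with earlier results of these data known. Full values were given for the 10 genes of smallest p, the 4 most abundant per length, the sensors, Xbp1, Atf4 and Ddit3, and for others as said. From the other lists, called genes or the 2 most abundant were named. Of the gene IDs, 45143 matched GENCODE M21. Fam8a1, Selenok, Dele1 and Defa30 were not matched. Protein sequences were not used here.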

Additional observations from a re-analysis of the deposited data

How the results depend on the processing

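The count of the 34 genes called was 0 in each direction in all 13 alternatives, with the smallest adjusted p, 0.110, for Ppp1r15a without aged replicate 3. Of 442 gene values under the alternatives, 0 passed the threshold and 56, in 24 genes, had another sign than in the reported fit, of which 6 came from the 7 fits on all libraries. The median log2 fold change of the 34 genes ran from -0.05 (without young replicate 1) to 0.15 (without young replicate 2). Its sign changed without young replicate 1 and without aged replicate 2 (-0.01). Upper quartile scaling gave 0.03. The SD of the medians of single libraries within groups was 0.16, which is not the error of this age difference.

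Over all genes, where 93 were called higher and 117 lower, the counts were 168 and 245 with no filter on low counts and 206 and 276 with DESeq2. The filter of 1 CPM in 3 libraries gave 67 lower. Leaving out 1 library gave 35 to 135 higher and 30 to 135 lower. The cause was not tested. Pdia2 was not tested under the filter of 1 CPM in 3 libraries. Pdia2, Jdp2 and Derl3 rest on few counts per library. No paired analysis was possible because the labels number no replicates and give no link between young and aged mice.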
